A study of Mus musculus with 12 samples.

Results

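The TNF superfamily ligands described here are 10 genes whose products T cells and the cells they meet use to signal to each other: Tnfsf4, Tnfsf8, Tnfsf9, Tnfsf10, Tnfsf11, Tnfsf14, Fasl, Cd40lg, Cd70 and Ltb. They were taken as the probe sets whose platform gene symbol is one of these names. Each name matched 1 probe set, so the group holds 10 of the 28853 probe sets of the array table. Every one of the 10 read above the lower quartile of all probe sets on all 12 arrays. The lowest readings of Tnfsf4 (5.86) and Cd70 (5.87), both in unstimulated cells, lay close to that quartile, which was 5.81 on the log2 scale.

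RNA was taken from naive CD4 T cells, and the C57BL/6 mice they came from carried a PP2Ac transgene or were wild type (WT). PP2Ac, encoded by Ppp2ca, is the catalytic subunit of the serine/threonine phosphatase PP2A. The 6 groups were transgenic cells at 0, 6 and 24 h and WT cells at 0, 6 and 24 h, where 0 h was unstimulated and the other times followed stimulation with soluble anti-CD3 (0.25 ug/mL) and anti-CD28 (0.5 ug/mL) on plates coated with an anti-hamster antibody. Each group had 2 one-colour arrays, of which 1 carries the mark Rep in its title; the other is called the unmarked array. No group held unstimulated cells at 6 or 24 h, so the effect of stimulation and that of time in culture cannot be told apart. The source label of the WT samples also contains the word transgenic, and the groups follow the titles. The age of the mice, the promoter of the transgene and whether the 2 arrays of a group came from separate mice or cultures are not given in the sources used here, so the p-values measure only the spread between these samples.

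TNF superfamily ligands are mostly membrane proteins with an extracellular domain that assembles into trimers and gathers its receptor into clusters. Some receptors of the family carry a death domain and can start apoptosis, and others recruit TRAF adaptors and switch on NF-kB. In lymphoid tissue the ligands serve costimulation between T cells and antigen-presenting cells, help to B cells, removal of activated cells and the building of lymphoid organs.

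Ppp2ca read 13.69 to 13.90 on the log2 scale on the 6 transgenic arrays, against 13.15 to 13.42 on the 6 WT arrays, and was 0.57 ± 0.05 (SE) higher in transgenic cells averaged over the 3 times (limma adjusted p = 0.00438). Cd4 lay between 12.98 and 13.75 on every array. At 6 h against 0 h it differed by -0.58 in transgenic cells (limma adjusted p = 0.00435) and -0.38 in WT cells (0.0326). Of the 5 measured T cell markers, 2 (Cd3d and Cd3g) were lower at 6 h and 1 (Cd5) higher in each genotype. All 4 activation markers fixed for the check (Cd69, Il2ra, Il2 and Myc) were higher at 6 h than at 0 h in both genotypes. Markers of other cells were present as well. The 3 WT arrays marked Rep stood apart: the summed linear signal of the 6 neutrophil markers there was 1517 to 3800, against 18910 to 37030 on the unmarked WT arrays, and 9669 to 38010 on the transgenic arrays. The 6 monocyte and macrophage markers summed to 3295 to 5900 on those 3 arrays, against 14833 to 19611 on the unmarked WT arrays and 11405 to 20283 on the transgenic arrays. All 6 natural killer (NK) cell markers read higher in transgenic than in WT cells at each time, none called. Their median log2 difference was 0.28 at 0 h, 0.56 at 6 h and 0.75 at 24 h. The 3 measured erythroid markers summed to 1894 and 1509 at 0 h in transgenic cells, against 939 and 400 in WT cells. At 24 h these sums were 330 and 305 against 319 and 328. In such bulk samples, fewer cells of a type and less RNA per cell cannot be told apart.

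Several of the genes sit next to each other in the mouse genome. In the RefSeq annotation of build GRCm38.p6, Tnfsf9, Cd70 and Tnfsf14 are consecutive protein-coding genes on chromosome 17. Ltb lies elsewhere on chromosome 17, next to Tnf, which is followed by Lta, and Tnfsf4 and Fasl lie on chromosome 1 with only Tnfsf18 between them among protein-coding genes. Tnfsf8 is on chromosome 4, Tnfsf10 on chromosome 3, Tnfsf11 on chromosome 14 and Cd40lg on chromosome X.

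RefSeq promoter windows of 300 bases, from 250 before to 50 after the gene start, were held for 6 of the 10 genes: Tnfsf8, Tnfsf10, Tnfsf11, Tnfsf14, Fasl and Ltb. The windows of Fasl and Ltb are shown because these genes had, among those 6, the largest increase and the largest decrease that passed the test after stimulation. Capitals mark matches, on either strand, to GGAAA (the NFAT core) and to a loose NF-kB pattern (GGG, any 5 letters, CC). The pattern leaves the middle letters free, so a match need not be an NF-kB site. NFAT and NF-kB are transcription factors activated by T cell receptor and CD28 signals. The Fasl window is chr1:161788446-161788745 on the minus strand and the Ltb window is chr17:35194257-35194556 on the plus strand, both GRCm38.p6 and written 5′ to 3′.
Fasl: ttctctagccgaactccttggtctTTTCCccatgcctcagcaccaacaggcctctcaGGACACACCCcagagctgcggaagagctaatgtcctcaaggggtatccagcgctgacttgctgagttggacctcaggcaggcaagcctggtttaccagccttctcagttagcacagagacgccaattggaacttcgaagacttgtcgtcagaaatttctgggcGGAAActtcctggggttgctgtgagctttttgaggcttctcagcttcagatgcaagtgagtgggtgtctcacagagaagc
Ltb: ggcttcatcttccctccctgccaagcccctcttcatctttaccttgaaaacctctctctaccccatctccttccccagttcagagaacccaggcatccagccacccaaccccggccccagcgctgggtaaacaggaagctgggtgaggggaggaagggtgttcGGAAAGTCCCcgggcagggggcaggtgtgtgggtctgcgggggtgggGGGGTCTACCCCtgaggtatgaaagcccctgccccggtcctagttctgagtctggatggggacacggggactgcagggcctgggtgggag

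In the Fasl window GGAAA matched at -226 (on the opposite strand) and at -30, counted from the gene start, and the NF-kB pattern matched at -193 (on the opposite strand). In the Ltb window a GGAAA match and an NF-kB match on the opposite strand both began at -87 and overlap, and 3 overlapping NF-kB matches began at -40, -39 and -38 (the last on the opposite strand). The letters TGANTCA, the AP-1 consensus, were in neither window and matched among the 6 genes only in the Tnfsf14 window, at -160. Over all 32851 promoter windows of the same length, 61.3% held GGAAA, 50.8% held the NF-kB pattern and 7.81% held TGANTCA, and of the 6 genes 6, 4 and 1 held them. These matches describe letters and do not show binding.

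Most of the ligand genes differed between stimulated cells and unstimulated cells at 0 h in both genotypes, in different directions and at different times. At 6 h against 0 h, Tnfsf4, Tnfsf9, Fasl and Cd70 rose and Cd40lg and Ltb fell in transgenic cells, and the same 6 genes passed the test in the same directions in WT cells. That was 6 of 10 genes called in each genotype, where 25.4% of the 23410 probe sets tested were called in transgenic cells and 26.5% in WT cells (limma, Benjamini-Hochberg adjusted p under 0.05). The median difference over the 10 genes was 0.76 in transgenic cells and 0.82 in WT cells on the log2 scale, and over all probe sets tested it was 0.00030 in transgenic cells and -0.0063 in WT cells. At 24 h against 0 h, Tnfsf4 and Tnfsf9 were higher and Cd40lg and Ltb lower in transgenic cells, 4 of 10 against 23.8% of all probe sets. In WT cells the same 4 genes passed, and Cd70 was higher as well, 5 of 10 against 26.7%. By direction, 4 of the 10 genes rose and 2 fell at 6 h in each genotype, against 12.5% and 12.9% of all probe sets in transgenic cells and 12.6% and 13.9% in WT cells. With the mark Rep as a block in the fit, 29.4% of all probe sets were called at 6 h in transgenic cells and 30.5% in WT cells, 28.2% and 31.3% at 24 h against 0 h, and 19.3% and 18.4% at 24 h against 6 h.

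**Figure D1:**
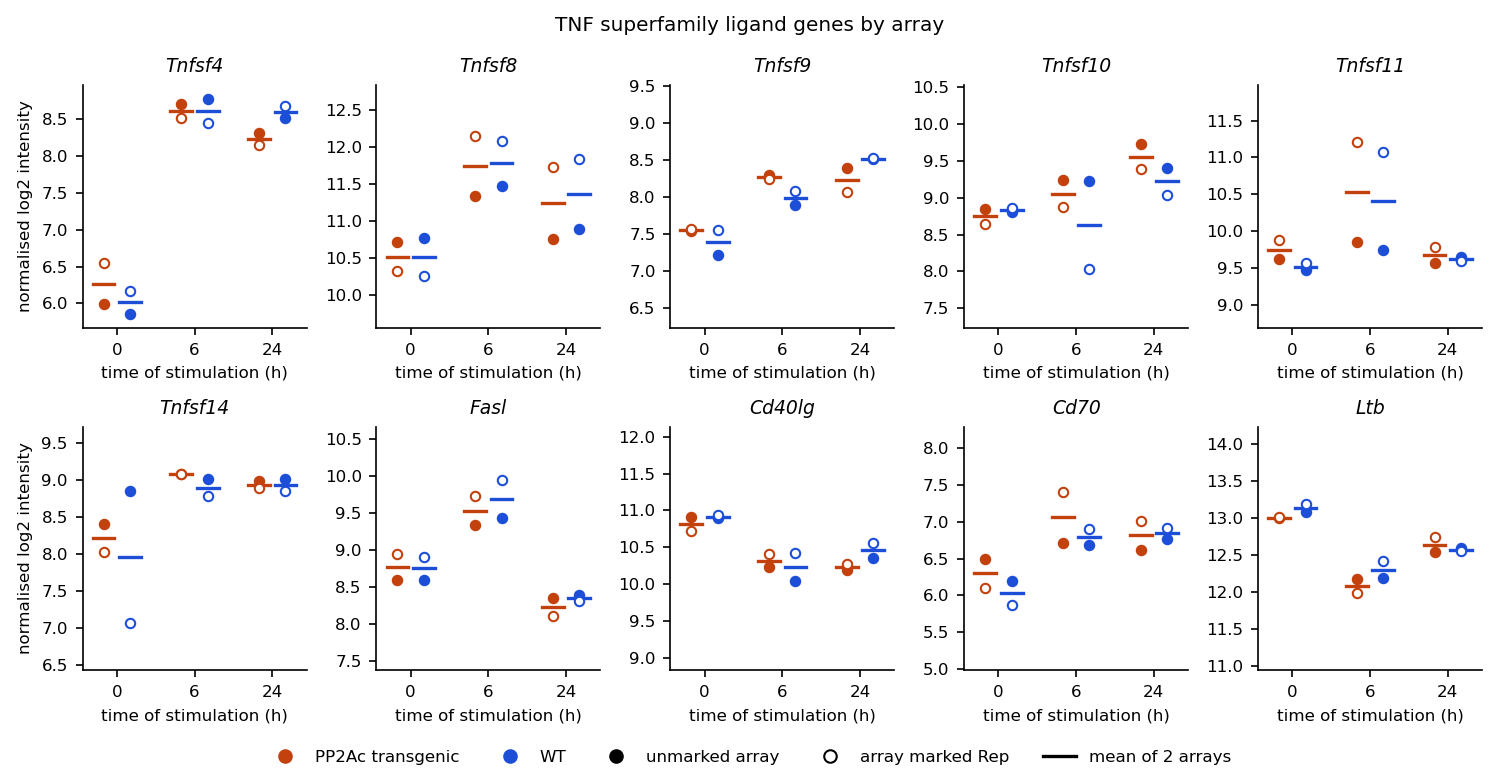
Normalised log2 intensity of each ligand gene (vertical axes, 1 panel per gene, equal span) by hours of stimulation (horizontal axis), with transgenic arrays in orange left of WT arrays in blue, filled points for unmarked arrays, open points for arrays marked Rep, and a bar for the mean of 2 arrays. Tnfsf4 moves up at 6 h and stays up, Fasl peaks at 6 h, Cd40lg and Ltb lie lower after stimulation, and the open points of Tnfsf8 and Tnfsf11 lie above the filled ones at 6 h.

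Tnfsf4 encodes OX40 ligand, which binds the costimulatory receptor OX40 (Tnfrsf4) on activated T cells. Its log2 intensity on the unmarked and the Rep array of transgenic cells was 5.99 and 6.55 at 0 h, 8.70 and 8.51 at 6 h, and 8.31 and 8.15 at 24 h. The WT arrays read 5.86 and 6.17 at 0 h, 8.77 and 8.44 at 6 h, and 8.51 and 8.68 at 24 h. All stimulated arrays lay above all unstimulated ones. The increase at 6 h over 0 h was 2.34 ± 0.20 on the log2 scale (5.05-fold, limma adjusted p = 5.50e-05) in transgenic cells and 2.59 ± 0.20 (6.03-fold, adjusted p = 3.35e-05) in WT cells, where ± is the standard error of the fit and each group has 2 arrays. At 24 h over 0 h it was 1.96 ± 0.20 (3.88-fold) in transgenic cells and 2.58 ± 0.20 (5.98-fold) in WT cells, with adjusted p of 0.000310 and 7.29e-05. This was the largest change of the 10 genes at both times, and all 4 calls held in each of the 12 fits with 1 array left out.

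Tnfsf9 encodes the ligand of the costimulatory receptor 4-1BB (Tnfrsf9). Its transgenic arrays read 7.53 and 7.56 at 0 h, 8.30 and 8.25 at 6 h, and 8.39 and 8.07 at 24 h. WT arrays read 7.22 and 7.55 at 0 h, 7.90 and 8.09 at 6 h, and 8.51 and 8.53 at 24 h. The 24 h level thus lay close to the 6 h level in transgenic cells and above it in WT cells. The increase over 0 h was 0.73 ± 0.13 at 6 h and 0.69 ± 0.13 at 24 h in transgenic cells (adjusted p = 0.00342 and 0.00601), and 0.61 ± 0.13 at 6 h and 1.14 ± 0.13 at 24 h in WT cells (adjusted p = 0.00876 and 0.000424). Between 24 h and 6 h the difference was -0.04 ± 0.13 in transgenic cells, and it was 0.53 ± 0.13 in WT cells (adjusted p = 0.0327). The WT difference between 24 h and 6 h was past the threshold in 6 of the 12 fits that left out 1 array (lost without any WT array of 6 h or 24 h, 0.43 to 0.63, or either transgenic 0 h array), and was 0.62 between the unmarked arrays and 0.44 between those marked Rep. The WT increase at 6 h was lost without the unmarked WT 0 h array (0.44) or the WT 6 h array marked Rep (0.51), and the transgenic one at 24 h without the unmarked transgenic 24 h array (0.52).

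Cd70 encodes the ligand of CD27, a costimulatory receptor of naive T cells. It read 6.50 and 6.10 at 0 h, 6.71 and 7.40 at 6 h, and 6.62 and 7.01 at 24 h on the transgenic arrays. On WT arrays the values were 6.20 and 5.87 at 0 h, 6.68 and 6.90 at 6 h, and 6.77 and 6.91 at 24 h. Arrays of stimulated cells lay above those of unstimulated cells in each genotype, by margins that differed between array sets. The 6 h increase was 0.76 ± 0.24 in transgenic cells (adjusted p = 0.0466) and 0.75 ± 0.24 in WT cells (adjusted p = 0.0472), just past the threshold. In transgenic cells it was 0.21 between the unmarked arrays and 1.31 between the arrays marked Rep, and the call held in 3 of the 12 fits with 1 array left out, those without the unmarked transgenic 6 h array or either transgenic 24 h array (0.41 to 1.11 over the 12 fits). In WT cells the call held in 4 of those 12 fits, those without a transgenic array of 6 h or 24 h (0.59 to 0.92 over the 12 fits). At 24 h the increase was 0.52 ± 0.24 in transgenic cells (adjusted p = 0.171) and 0.80 ± 0.24 in WT cells (adjusted p = 0.0362), and the WT call was lost when any 1 of the 4 arrays compared was left out (0.64 to 0.97).

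Tnfsf8 encodes CD30 ligand, which binds CD30 (Tnfrsf8) on activated lymphocytes. In transgenic cells it read 10.71 and 10.31 at 0 h, 11.34 and 12.14 at 6 h, and 10.75 and 11.73 at 24 h. The WT values were 10.77 and 10.25 at 0 h, 11.47 and 12.08 at 6 h, and 10.89 and 11.83 at 24 h. The arrays marked Rep were lower at 0 h and higher at both later times in both genotypes. The 6 h increase was 1.23 ± 0.43 (adjusted p = 0.0690) in transgenic cells and 1.27 ± 0.43 (adjusted p = 0.0587) in WT cells. It was 0.63 between unmarked and 1.83 between Rep arrays of transgenic cells, and 0.71 and 1.83 for those of WT cells. With the mark as a block in the fit, it passed the threshold in both genotypes (adjusted p = 0.0390 and 0.0334), and the WT increase also passed without any 1 of the 4 arrays at 24 h. At 24 h the differences from 0 h were 0.73 ± 0.43 in transgenic cells and 0.85 ± 0.43 in WT cells, not past the threshold with or without the block. It was 0.04 between unmarked and 1.41 between Rep arrays of transgenic cells, and 0.12 and 1.58 between those of WT cells, and over the 12 fits with 1 array left out it ran from 0.24 to 1.22 in transgenic cells and 0.38 to 1.32 in WT cells.

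Tnfsf14 encodes LIGHT, which binds HVEM (Tnfrsf14) and the lymphotoxin-beta receptor. Transgenic arrays read 8.41 and 8.03 at 0 h, 9.08 and 9.09 at 6 h, and 8.98 and 8.89 at 24 h, so that stimulated arrays lay above unstimulated ones. WT arrays read 8.86 and 7.07 at 0 h, 9.01 and 8.79 at 6 h, and 9.01 and 8.86 at 24 h. The unstimulated WT array marked Rep was the lowest of all 12, and the other WT 0 h array overlapped the stimulated ones. The 6 h difference was 0.86 ± 0.44 in transgenic cells (adjusted p = 0.211) and 0.94 ± 0.44 in WT cells (adjusted p = 0.167). At 24 h it was 0.72 ± 0.44 and 0.97 ± 0.44, also not past the threshold. Without the unmarked WT 0 h array the WT differences were 1.83 and 1.87 and passed, and without either WT 0 h array the transgenic ones of 0.86 and 0.72 passed. The low array had a neutrophil marker sum of 3800, against 37030 on the other WT 0 h array. The WT arrays marked Rep at 6 h and 24 h had sums of 3493 and 1517 and Tnfsf14 values near those of the other stimulated arrays. The part of these cells in the 0 h difference was not tested.

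Cd40lg encodes CD40 ligand, the signal by which activated CD4 T cells help B cells and license dendritic cells. Its transgenic arrays read 10.92 and 10.72 at 0 h, 10.23 and 10.41 at 6 h, and 10.19 and 10.27 at 24 h. In WT cells they read 10.89 and 10.93 at 0 h, 10.04 and 10.42 at 6 h, and 10.35 and 10.56 at 24 h. Every stimulated array lay below every unstimulated array. The 6 h difference was -0.50 ± 0.14 in transgenic cells (1.41-fold lower, adjusted p = 0.0266) and -0.68 ± 0.14 in WT cells (1.61-fold lower, adjusted p = 0.00520). At 24 h it was -0.59 ± 0.14 in transgenic cells (adjusted p = 0.0139) and -0.46 ± 0.14 in WT cells (adjusted p = 0.0373). The WT call at 6 h held in all 12 fits with 1 array left out and the WT call at 24 h in 6 of them, being lost without any WT array of 0 h or 24 h or either transgenic 24 h array (-0.56 to -0.35 over the 12 fits). The transgenic call at 6 h was lost without the unmarked 0 h (-0.40) or 6 h (-0.41) array, and the one at 24 h without the unmarked 0 h (-0.49) or 24 h (-0.55) array.

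Fasl encodes Fas ligand, the death ligand that kills cells bearing Fas and limits T cell responses. It read 8.60 and 8.95 at 0 h, 9.34 and 9.73 at 6 h, and 8.35 and 8.10 at 24 h in transgenic cells, and in WT cells 8.59 and 8.91 at 0 h, 9.44 and 9.94 at 6 h, and 8.39 and 8.31 at 24 h. The course was transient: the 4 arrays at 6 h were above all others and the 4 at 24 h were below all others. The 6 h increase over 0 h was 0.76 ± 0.21 in transgenic cells (1.70-fold, adjusted p = 0.0238) and 0.94 ± 0.21 in WT cells (1.92-fold, adjusted p = 0.00825). At 24 h against 6 h Fasl fell by 1.31 ± 0.21 in transgenic cells (2.47-fold, adjusted p = 0.00412) and by 1.34 ± 0.21 in WT cells (2.53-fold, adjusted p = 0.00404). Against 0 h the 24 h values of -0.54 ± 0.21 in transgenic cells and -0.40 ± 0.21 in WT cells were not past the threshold (adjusted p = 0.0951 and 0.207). Both falls after 6 h held in all 12 fits with 1 array left out. The 6 h increase was lost in transgenic cells without the unmarked 0 h array (0.59) or the Rep 6 h array (0.57), and in WT cells without the unmarked 0 h array (0.79) or the Rep 6 h array (0.69).

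Natural killer cells also express Fasl. Of the 6 NK cell markers, 0 were higher and 2 (Klrd1 and Prf1) were lower at 6 h than at 0 h in each genotype. Their summed signal was 2747 and 2934 at 6 h against 5118 and 5247 at 0 h in transgenic cells, and 1469 and 2637 at 6 h against 3868 and 5041 at 0 h in WT cells, while Fasl rose. None of the 6 read below the lower quartile of all probe sets at 0 h or 6 h. CD8 T cells are another source of Fasl, and of their 2 markers Cd8a differed at 6 h from 0 h by 0.73 ± 0.55 in transgenic cells and 0.52 ± 0.55 in WT cells, and Cd8b1 by -0.02 ± 0.26 and -0.29 ± 0.26, none past the threshold. The part of NK and CD8 T cells in the course of Fasl was not tested.

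Tnfsf10 encodes TRAIL, the other death ligand of the group. Transgenic arrays read 8.84 and 8.65 at 0 h, 9.24 and 8.87 at 6 h, and 9.73 and 9.39 at 24 h. WT arrays read 8.80 and 8.85 at 0 h, 9.23 and 8.04 at 6 h, and 9.41 and 9.04 at 24 h. All arrays at 24 h lay above all arrays at 0 h, and the WT 6 h array marked Rep was the lowest of the 12. The 24 h difference from 0 h was 0.81 ± 0.33 in transgenic cells (adjusted p = 0.115) and 0.39 ± 0.33 in WT cells (adjusted p = 0.447). With the mark as a block the transgenic one passed (adjusted p = 0.0345), and it also passed without either WT 6 h array. At 6 h the difference was 0.31 ± 0.33 in transgenic cells and -0.19 ± 0.33 in WT cells. The WT value was 0.43 between unmarked arrays and -0.82 between arrays marked Rep, and without the unmarked WT 6 h array it was -0.79 and passed as a decrease, and the WT difference between 24 h and 6 h, 0.59 ± 0.33 with all arrays, was then 1.19 and passed.

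Tnfsf11 encodes RANK ligand, which drives osteoclast formation and lymph node development. It read 9.62 and 9.88 at 0 h, 9.86 and 11.21 at 6 h, and 9.57 and 9.79 at 24 h in transgenic cells. The WT values were 9.47 and 9.57 at 0 h, 9.75 and 11.07 at 6 h, and 9.65 and 9.60 at 24 h. The 2 arrays marked Rep at 6 h were the highest of the 12, by more than 1 log2 unit, and the unmarked 6 h arrays stayed near the 0 h level. The 6 h increase was 0.78 ± 0.46 in transgenic cells and 0.89 ± 0.46 in WT cells (adjusted p = 0.279 and 0.207). It was 0.23 and 1.33 between the unmarked and the Rep arrays of transgenic cells, and 0.28 and 1.50 between those of WT cells. Leaving out the unmarked 6 h array of the genotype gave 1.46 in transgenic cells and 1.55 in WT cells, past the threshold.

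Ltb encodes lymphotoxin beta, which anchors lymphotoxin alpha to the cell surface and signals through the lymphotoxin-beta receptor to organise lymphoid tissue. It read 13.00 and 13.01 at 0 h, 12.17 and 11.99 at 6 h, and 12.53 and 12.74 at 24 h in transgenic cells. In WT cells the values were 13.08 and 13.19 at 0 h, 12.18 and 12.42 at 6 h, and 12.59 and 12.55 at 24 h. In both genotypes the 3 times did not overlap, with the 6 h arrays lowest. At 6 h against 0 h it fell by 0.93 ± 0.11 in transgenic cells (1.90-fold, adjusted p = 0.000302) and by 0.83 ± 0.11 in WT cells (1.78-fold, adjusted p = 0.000513). At 24 h against 0 h the difference was -0.36 ± 0.11 in transgenic cells (adjusted p = 0.0414) and -0.56 ± 0.11 in WT cells (adjusted p = 0.00506). The increase at 24 h over 6 h was 0.56 ± 0.11 in transgenic cells (adjusted p = 0.0104) and 0.27 ± 0.11 in WT cells (adjusted p = 0.148). The 6 h calls and the WT call at 24 h held in all 12 fits with 1 array left out. The transgenic call at 24 h against 0 h held in 5 of them, being lost without either transgenic 0 h array, the unmarked transgenic 24 h array or any WT array of 0 h or 24 h (-0.47 to -0.26 over the 12 fits), and the one at 24 h against 6 h was lost without the transgenic 6 h (0.47) or 24 h (0.46) array marked Rep.

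B cells express Ltb too, and B cell markers moved in the same direction. At 6 h against 0 h, 3 of the 5 measured B cell markers (Cd79a, Cd79b and Cd22) fell in each genotype and 0 rose. The summed signal of the 5 was 4894 and 6559 at 6 h against 13719 and 14424 at 0 h in transgenic cells, and 4216 and 7291 at 6 h against 13392 and 14478 at 0 h in WT cells. At 24 h it was 14359 and 14188 in transgenic cells and 12486 and 9261 in WT cells. The lowest reading of a measured B cell marker on any array was 7.74, for Cd22. The part of B cells in the decrease of Ltb was not tested.

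At 24 h against 6 h, 2 of the 10 genes were called in each genotype, against 14.3% of all probe sets in transgenic cells and 13.3% in WT cells. Fasl fell in both, Ltb rose in transgenic cells and Tnfsf9 rose in WT cells. Over all probe sets 7.89% rose and 6.42% fell in transgenic cells, and 7.49% rose and 5.86% fell in WT cells. The difference between genotypes in the Tnfsf9 increase was -0.57 ± 0.19 and in the Ltb increase 0.29 ± 0.16 (transgenic minus WT, a contrast added after the data were seen), each with an adjusted p of 1.0.

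With the 3 WT arrays of low neutrophil and monocyte signal dropped, each WT group has 1 array, assumed to vary like the other groups. Tnfsf4 (2.91), Tnfsf9 (0.68), Cd40lg (-0.85) and Ltb (-0.89) were then still called at 6 h in WT cells, and Fasl (0.85, adjusted p = 0.0630) and Cd70 (0.48, adjusted p = 0.477) were not. The 24 h increases of Tnfsf4 (2.65) and Tnfsf9 (1.29) over 0 h were called, and the differences of Cd40lg (-0.54), Cd70 (0.57) and Ltb (-0.49) were not. Between 24 h and 6 h neither Fasl (-1.05) nor Tnfsf9 (0.62) was called.

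**Figure D2:**
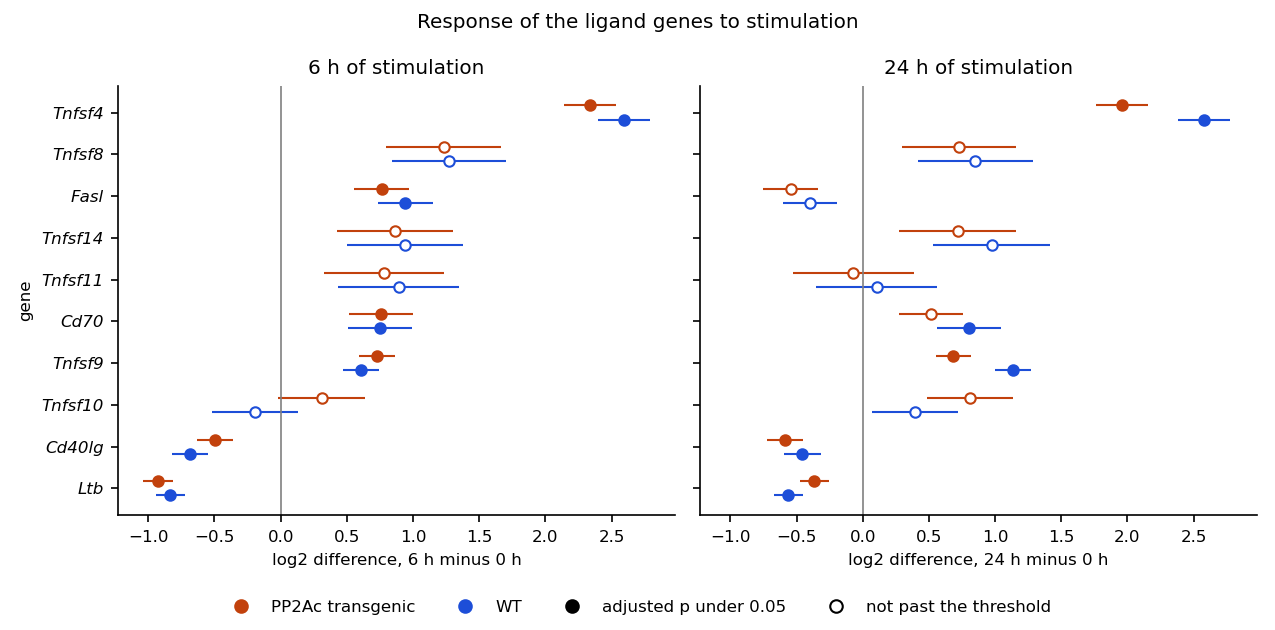
Log2 difference from 0 h (horizontal axes, same scale) of each ligand gene at 6 h (left) and 24 h (right), for transgenic cells (orange, upper point) and WT cells (blue, lower point) with standard errors of the fit as bars; filled points passed an adjusted p of 0.05. At 6 h Tnfsf4, Fasl, Cd70 and Tnfsf9 lie right of 0 and Cd40lg and Ltb left of it as filled points in both genotypes, and the bars of Tnfsf8, Tnfsf11 and Tnfsf14 are the widest.

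Transgenic and WT cells were compared at each time to ask whether raised PP2Ac changes the ligand genes. None of the 10 was called at 0, 6 or 24 h or averaged over the 3 times, with limma or in any alternative run, and 0 of the 10 had an unadjusted p under 0.05 in these 4 comparisons. Of the 23410 probe sets tested, 834 had such a p at 0 h, 610 at 6 h, 997 at 24 h and 1484 in the average. The 0 of 10 lies near these shares. Over all probe sets, 0.00854% were called at each time and 0.0256% in the average, and with the mark as a block 0.0171% at each time and 0.0769% in the average. Ppp2ca itself, without the block, was called in the average but at no single time. Its difference was 0.74 at 0 h, 0.38 at 6 h and 0.60 at 24 h, so the absence of a call at 1 time does not show the absence of a difference. The differences, transgenic minus WT, lay between -0.13 and 0.26 at 0 h, -0.22 and 0.42 at 6 h, and -0.37 and 0.33 at 24 h. Their 95% intervals together spanned -0.97 to 1.26 at 0 h, -1.01 to 1.18 at 6 h and -1.09 to 1.08 at 24 h, so for the genes with the widest spread they held differences of more than 2-fold. The intervals were narrowest for Ltb, at -0.38 to 0.12 at 0 h, -0.47 to 0.03 at 6 h and -0.18 to 0.32 at 24 h. The highest difference at 6 h, 0.42 for Tnfsf10, was 0.01 within the unmarked and 0.83 within the Rep arrays. The Tnfsf14 difference at 0 h, 0.26, was -0.44 within the unmarked and 0.96 within the Rep arrays.

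Genes whose 2 transgenic arrays lay wholly on one side of the 2 WT arrays were counted at each time. At 0 h 1 gene was higher without overlap (Tnfsf11) and 1 lower (Ltb), where 12.8% of all probe sets were higher and 20.5% lower. At 6 h it was 2 higher (Tnfsf9 and Tnfsf14) and 1 lower (Ltb), against 11.1% and 14.1%. At 24 h it was 0 higher and 3 lower, against 14.5% and 16.2%; these were Tnfsf4 (-0.37 ± 0.20), Tnfsf9 (-0.29 ± 0.13) and Cd40lg (-0.23 ± 0.14), each with an adjusted p of 1.0.

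The response to stimulation was also compared between genotypes. None of the 10 genes, and 0.0% of all probe sets, passed in the 6 h response or in the 24 h response. For the 24 h response the difference, transgenic minus WT, was -0.62 ± 0.28 for Tnfsf4 (95% interval -1.25 to 0.0016) and -0.45 ± 0.19 for Tnfsf9 (unadjusted p = 0.0425, adjusted p = 1.0), the 1 gene of the 10 with an unadjusted p under 0.05. Of the 23410 probe sets tested, 625 had such a p in the 24 h response. The Tnfsf4 value was -0.32 within the unmarked and -0.92 within the Rep arrays, and ran from -0.91 to -0.34 over the 12 fits with 1 array left out. The Tnfsf9 value was -0.43 within the unmarked and -0.47 within the Rep arrays, and ran from -0.61 to -0.29 over those fits.

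**Figure D3:**
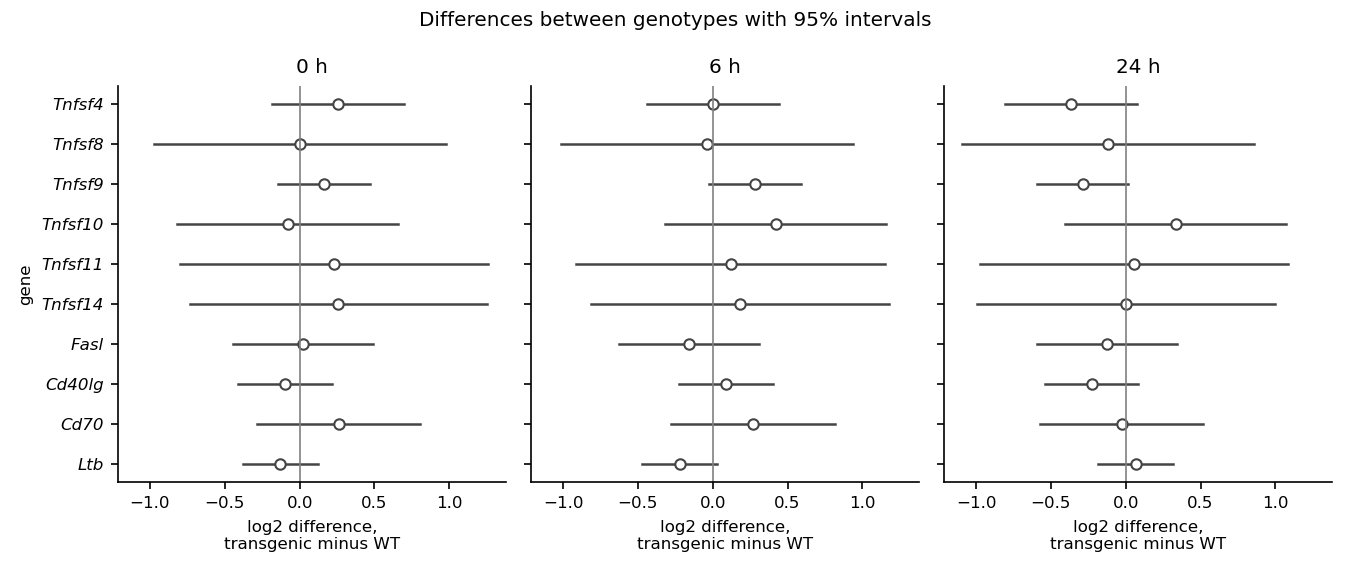
Log2 difference between transgenic and WT cells (horizontal axes, transgenic minus WT, same scale) for each ligand gene at 0, 6 and 24 h, with 95% intervals of the fit as bars. All 30 intervals include 0, and those of Tnfsf8, Tnfsf11 and Tnfsf14 are the widest.

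Other genes of the pathway were taken from 4 lists. Of the other ligands of the family, 6 of 8 had a probe set of their own. Tnf rose at 6 h by 1.88 ± 0.22 in transgenic cells and 2.29 ± 0.22 in WT cells, and at 24 h by 1.56 and 2.13. Lta, the partner of Ltb in the surface lymphotoxin trimer and its neighbour beyond Tnf on chromosome 17, rose at 6 h by 1.18 ± 0.36 in transgenic cells and at 24 h by 1.74 ± 0.36 in transgenic and 1.90 ± 0.36 in WT cells. Its 6 h difference in WT cells was 1.09 ± 0.36 (adjusted p = 0.0545, and 0.0237 with the mark as a block). The remaining 4 (Tnfsf13b, Tnfsf15, Tnfsf18 and Eda) did not pass at either time.

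Of the 11 receptors for the ligands, 5 rose and 0 fell at 6 h in each genotype. Of all probe sets, 12.5% rose and 12.9% fell in transgenic cells, and 12.6% rose and 13.9% fell in WT cells. Among the receptors the largest increase was that of Tnfrsf9, the receptor of Tnfsf9, at 2.35 ± 0.19 in transgenic cells and 2.56 ± 0.19 in WT cells. Cd40, the receptor of Cd40lg, rose by 1.75 and 1.51, Fas by 1.22 and 1.41 and Tnfrsf4, the receptor of Tnfsf4, by 1.01 and 1.12. At 24 h, 5 were higher than at 0 h in transgenic cells and 4 in WT cells, where 23.8% and 26.7% of all probe sets were called in either direction. Tnfrsf9 and Fas were lower at 24 h than at 6 h in both genotypes. The Tnfsf4, Tnfsf9 and Fasl transcripts therefore rose at 6 h in the same cultures as those of their receptors, and Cd40lg fell where Cd40 rose. B cells express Cd40, and 3 of the 5 B cell markers fell at 6 h as given above; the part of B cells in the Cd40 values was not tested.

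**Figure D4:**
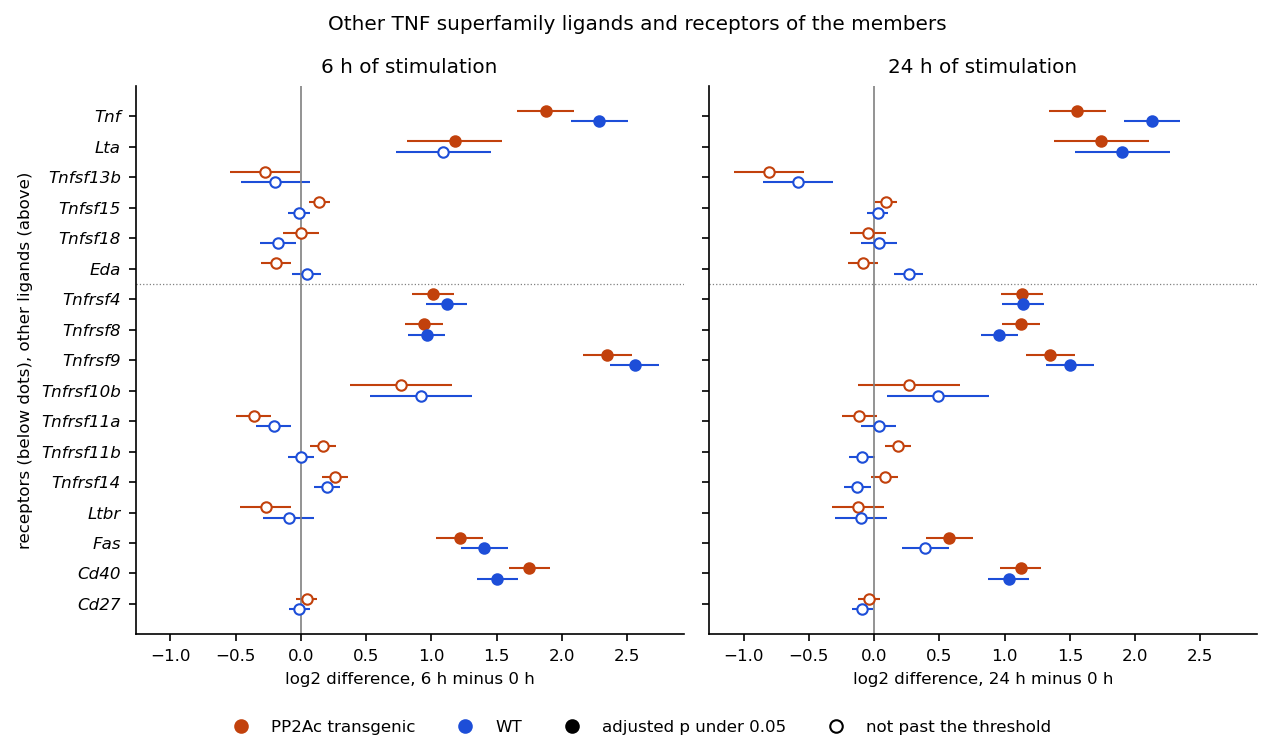
Log2 difference from 0 h (horizontal axes, same scale) of the other TNF superfamily ligands (above the dotted line) and of the receptors of the 10 ligands (below it) at 6 h (left) and 24 h (right), in transgenic cells (orange, upper point) and WT cells (blue, lower point) with standard errors; filled points passed an adjusted p of 0.05. Tnf, Lta, Tnfrsf4, Tnfrsf8, Tnfrsf9, Fas and Cd40 lie right of 0 at both times, and the other genes lie nearer to 0 or have open points.

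Among 13 measured adaptors and death signalling genes, 3 fell and 0 rose at 6 h in transgenic cells, and 3 fell and 1 rose in WT cells. Of all probe sets, 25.4% were called at 6 h in transgenic cells and 26.5% in WT cells, so the counts of this list lay near that share. Traf5, an adaptor of OX40, CD27 and CD30, fell by 1.67 ± 0.16 in transgenic cells and 1.89 ± 0.16 in WT cells, and Cyld, a deubiquitinase that restrains NF-kB, fell by 0.69 and 0.59. At 24 h 4 were lower in transgenic and 5 in WT cells, with 0 higher, against 23.8% and 26.7% of all probe sets called in either direction. The genes lower at 24 h included Tnfaip3, the NF-kB inhibitor A20, at -1.08 ± 0.14 and -1.18 ± 0.14. Of the 2 sheddases that can cut such ligands from the membrane, Adam10 was lower at 6 h in transgenic cells (-0.28) and no other difference from 0 h passed. None of the genes in the 4 lists was called between transgenic and WT cells at any time.

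Courses over the 12 arrays were compared with Pearson's r as a description, since the arrays share their times and array sets. Tnfsf4 followed Tnfsf9 (r = 0.89) and ran against Cd40lg (-0.90) and Ltb (-0.87), Tnfsf8 followed Cd70 (0.90), Cd40lg followed Ltb (0.80) and Tnfsf11 followed Fasl (0.78). Outside the family, the genes of most similar course were Erh for Tnfsf4 and Hbs1l and Lrrc8a for Fasl and Ltb, each with r of 0.99. The closest for the others were Ghitm for Tnfsf8 (0.96), Rbmx2 for Tnfsf9 (0.96), Frg2f1 for Cd40lg (0.96), Lcp2 for Cd70 (0.96), Ttc39b for Tnfsf11 (0.95), Gstt3 for Tnfsf10 (0.92) and Mapkapk2 for Tnfsf14 (0.92).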

How the data were processed

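Total RNA of 12 samples was measured on one-colour arrays. The values deposited by the authors are log2 intensities, 1 for each probe set on each array, from 3.49 to 15.38. Their summarisation and normalisation are not stated in the labels or the table. The array medians ran from 7.39 to 7.50, and the values were quantile normalised between arrays here. Of 28853 probe sets, 21789 had 1 gene symbol in the platform annotation, 1621 several and 5443 none, and the 23410 with a symbol were tested. The number of arrays limits the precision, and levels of different probe sets were not compared.

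Tests used limma 3.58.1 in R 4.3.3 on all 12 arrays with 6 group means (degrees of freedom: 6 residual, 3.05 prior). A call is a Benjamini-Hochberg adjusted p under 0.05 over all tested probe sets, in 12 comparisons. A further contrast, the genotype difference in the change between 6 h and 24 h, was added after the data were seen. All 10 ligand genes are named in every comparison. From each pathway list up to 4 genes are named by the largest difference past the threshold, with others where a result turns on them, and Ppp2ca checks the transgene. The genes of most similar course are those of the highest r. Members and lists were chosen with earlier results of these data known.

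Replicate arrays correlated with r from 0.992 to 0.997 over probe sets. To check whether the mark Rep pairs samples, deviations from the group means were correlated between groups: all 15 correlations were positive, from 0.138 to 0.591, so arrays of the same mark shared variation, and the blocked p is given where it changes a call. The alternatives were the deposited values, median centring, other sets of probe sets, the block, trended and robust moderation, array weights, the compared groups only, a fit that drops each array in turn and 1 that drops all 3 WT arrays marked Rep. Promoter windows are from RefSeq, build GRCm38.p6. The fit was tested on simulated data. Figures used Python 3.11.15 and matplotlib 3.10.9.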

Additional observations from a re-analysis of the deposited data

Results flagged for a closer look

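Tnfsf9, the ligand of 4-1BB, stood on opposite sides in the 2 genotypes after stimulation. At 6 h both transgenic arrays (8.30 and 8.25) lay above both WT arrays (7.90 and 8.09), a difference of 0.28 ± 0.13. At 24 h both transgenic arrays (8.39 and 8.07) lay below both WT arrays (8.51 and 8.53), a difference of -0.29 ± 0.13. The test of the change itself, added after the data were seen, gave -0.57 ± 0.19 for the genotype difference at 24 h minus that at 6 h (unadjusted p = 0.0151, limma adjusted p = 1.0 over all probe sets). It was -0.52 within the unmarked arrays and -0.62 within the arrays marked Rep. It fails the correction for multiple tests, and 488 of the 23410 probe sets tested had an unadjusted p under 0.05 in this contrast.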

How the results depend on the processing

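The count of the 10 ligand genes called between transgenic and WT cells, at each time, on average and in both responses, was 0 under every alternative run. For the time comparisons, leaving out 1 array at a time gave 3 to 6 genes at 6 h against 0 h in transgenic cells (6 with all arrays) and 3 to 7 in WT cells (6), 1 to 5 at 24 h against 0 h in transgenic cells (4) and 3 to 5 in WT cells (5), and 1 to 2 at 24 h against 6 h in each genotype (2). The lowest counts came without the unmarked 0 h array of transgenic cells (3 at 6 h), the WT 6 h array marked Rep (3 at 6 h) and the unmarked 24 h array of transgenic cells (1 at 24 h). At 24 h against 0 h in WT cells, 3 genes were called with the values as deposited and 2 when the 3 WT arrays marked Rep were dropped. At 24 h against 6 h in WT cells, 1 was called in a fit of the compared groups only and 0 without those 3 arrays. Fewer arrays entered these last fits. With the mark as a replicate block the counts were 7 and 7 at 6 h, 5 and 5 at 24 h, and 2 and 2 between 24 h and 6 h for transgenic and WT cells, through Tnfsf8 at 6 h and Tnfsf10 at 24 h, and the block changed no other call of the 10 genes. Over all probe sets the block moved the calls between transgenic and WT cells averaged over times to 18, against 6 without it. Median centring ended the calls of Cd40lg at 6 h in transgenic cells (-0.46) and at 24 h in WT cells (-0.36) and of Ltb at 24 h in transgenic cells (-0.35), and with the deposited values Cd70 passed in neither genotype at 6 h (0.77 in transgenic cells, 0.75 in WT cells) nor at 24 h in WT cells (0.74), and Cd40lg did not pass at 24 h in WT cells (-0.40). In the fit of the compared groups only, the calls lost were Cd70 at 6 h in transgenic cells (adjusted p = 0.0668), Tnfsf9 at 6 h in WT cells (0.0516), Ltb at 24 h in transgenic cells (0.0648), Cd40lg at 24 h in WT cells (0.0510) and Tnfsf9 between 24 h and 6 h in WT cells (0.0841). Cd70 at 6 h was also lost over all rows of the table in both genotypes and with array weights in WT cells. In the run without the 40% dimmest probe sets Cd70 was not tested. Some alternatives added calls. Tnfsf8 at 6 h was called in both genotypes with median centring and with the compared groups only. In WT cells it was also called with the deposited values and without the 40% dimmest probe sets. In transgenic cells the compared groups only also gave Tnfsf14 at 6 h (limma adjusted p = 0.00578) and 24 h (0.0223). Tnfsf10 at 24 h was gained there as well (0.0157). No called value changed sign under any alternative. Values that were not called changed sign 119 times, a value being counted once for each alternative that turned it.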
